A study of Mus musculus with 3 samples.

Results

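Transcription factors of the Schwann and glial lineage, 10 of the 31053 genes in the count table, were followed across single cells of mouse dorsal root ganglia (DRGs). They are Sox10, Egr2 (also called Krox20), Egr3, Pou3f1 (also called Oct6 or SCIP), Sox2, Sox4, Id2, Zeb2, Nr4a2 (also called Nurr1) and Rxrg. The members were taken by gene symbol, each matched 1 gene identifier, and none of them was used to assign a cell to a class.

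The 3 libraries came from naïve mice without treatment, from mice 7 days after spared nerve injury (SNI) made on both sides, and from mice 14 days after it. All mice were male C57BL/6J at 13 weeks of age, and the mice with SNI were kept on small-grained bedding after the operation. Each library pooled 8 lumbar L3 and L4 DRGs of 2 perfused mice, which cannot be separated again, and whole ganglia were dissociated with collagenase and dispase. RNA was captured from its 3′ end with 10x Genomics v3 chemistry, and each molecule is counted once by its molecular identifier (UMI).

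Satellite glial cells (SGCs) wrap neuronal cell bodies in the DRG, myelinating Schwann cells form the myelin of large axons, and non-myelinating Schwann cells bundle small axons. All of them descend from the neural crest. Sox10 is needed to specify these glia and to keep their identity. In Schwann cells Pou3f1 and Sox10 together switch on Egr2, which drives myelin genes, whereas Sox2 and Id2 are known as factors of immature cells that hold myelination back and Zeb2 represses such inhibitors.

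Of 11937 barcodes, 9572 were used, those with 500 or more genes detected and no more than 20% of their UMIs from mitochondria, less 90 doublets. Libraries held 22343246 to 36550911 UMIs, and 1 to 6 barcodes were shared by any pair of libraries. Marker genes put 1511 cells in the SGC-like class, 4112 in the myelinating Schwann-like class and 394 in the non-myelinating Schwann-like class, while 858 cells stayed without a class. Of non-myelinating Schwann-like cells the libraries held 78 to 173, the fewest in the 7 day one, so this class has the widest errors. Median UMIs per SGC-like cell were 5600 (naïve), 7654.5 (7 days) and 7679.5 (14 days), 2494, 3583 and 3573 per myelinating Schwann-like cell, and 1770, 2198.5 and 2706 per non-myelinating Schwann-like cell. Levels below are counts scaled to the summed UMIs of a class (CPM), always given in the order naïve, 7 days, 14 days.

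The same markers drew the classes, so their sums describe the gate and are no independent check of it. The 8 markers of myelinating Schwann cells (Mbp, Prx, Mag and others) summed to 56373 to 60819 CPM in their class and to 1857 to 2082 CPM in SGC-like cells. The 5 SGC markers (Fabp7, Kcnj10, Slc1a3, Ednrb, Atp1b2) summed to 11464 to 13013 CPM in SGC-like cells and 229 to 243 CPM in myelinating Schwann-like cells. The border between SGC-like and non-myelinating Schwann-like cells was softer, since the 5 markers of the latter (Scn7a, Ncam1, L1cam, Ngfr, Chl1) stood at 1439 to 1538 CPM in SGC-like cells against 5181 to 7559 CPM in their own class. A cell was gated where its best class score was at least 1.5 times the next, and 531 SGC-like cells had a ratio from there to 2, while 284 cells with a best SGC score fell just short, at 1.2 or more. Of cells with a best score for the non-myelinating class, 113 had a ratio from 1.5 to 2 and 101 fell just short.

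Promoter sequence is shown for 4 members that carry the class pattern described below: Egr2 and Nr4a2 of myelinating Schwann-like cells, Sox2 of SGC-like cells and Rxrg of non-myelinating Schwann-like cells. Each is the 250 bases before a RefSeq start on GRCm38.p6, read 5′ to 3′ on the strand of the gene: chr10:67537619-67537868 (plus strand) for Egr2, chr2:57124004-57124253 (minus strand) for Nr4a2, chr3:34649745-34649994 (plus strand) for Sox2 and chr1:167598112-167598361 (plus strand) for Rxrg. RefSeq windows were matched for 7 of the 10 members. Capitals mark letters that match 1 of 5 motifs on either strand.
Egr2: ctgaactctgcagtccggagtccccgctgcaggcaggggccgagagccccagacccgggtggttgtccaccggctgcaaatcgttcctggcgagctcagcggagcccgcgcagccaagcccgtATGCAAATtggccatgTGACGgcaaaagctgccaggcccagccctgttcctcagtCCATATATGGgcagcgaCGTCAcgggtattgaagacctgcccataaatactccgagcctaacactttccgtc
Nr4a2: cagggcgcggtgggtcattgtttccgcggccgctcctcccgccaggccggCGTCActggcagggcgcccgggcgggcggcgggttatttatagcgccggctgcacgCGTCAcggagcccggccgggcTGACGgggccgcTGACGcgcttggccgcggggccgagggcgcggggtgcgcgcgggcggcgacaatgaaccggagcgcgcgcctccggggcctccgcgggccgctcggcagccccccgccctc
Sox2: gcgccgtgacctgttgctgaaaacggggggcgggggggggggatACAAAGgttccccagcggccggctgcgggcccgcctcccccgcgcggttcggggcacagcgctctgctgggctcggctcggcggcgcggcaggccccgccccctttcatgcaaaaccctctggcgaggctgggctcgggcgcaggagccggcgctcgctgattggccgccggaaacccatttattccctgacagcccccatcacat
Rxrg: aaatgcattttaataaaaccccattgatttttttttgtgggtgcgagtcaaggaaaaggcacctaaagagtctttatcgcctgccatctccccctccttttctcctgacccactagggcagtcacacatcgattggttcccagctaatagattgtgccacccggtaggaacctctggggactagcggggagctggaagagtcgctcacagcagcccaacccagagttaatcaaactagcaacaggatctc
The motifs searched were ACAAAG for SOX factors, GCGTGGGCG or GCGGGGGCG for EGR factors, the octamer ATGCAAAT for POU factors, TGACG as the core of a cAMP response element, and the CArG box of serum response factor. The Egr2 window held an octamer 127 bases, a CArG box 72 bases and TGACG 111 and 55 bases before the start. Egr2 has other RefSeq windows, not shown. The one at chr10:67535249-67535498 held no motif, and the one at chr10:67537316-67537565 held a CArG box alone. The rest overlap the window shown and held the same motifs. Such an octamer stood in 1.62% and a CArG box in 1.48% of 32536 promoter windows of this length. The Nr4a2 window held TGACG 4 times, against 17.85% of windows with at least 1. The Sox2 window had ACAAAG 206 bases before the start, as 16.5% of windows did anywhere, and the Rxrg window had no match. Another Rxrg window, at chr1:167618015-167618264, had none either. EGR letters, found in 3.09% of windows, were in none of the 4. These matches describe letters only.

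On GRCm38 the members lie on 9 chromosomes. In the GENCODE vM21 annotation Sox10 is at chr15:79154908-79165240 (minus strand), Egr2 at chr10:67535475-67542188 (plus), Egr3 at chr14:70077203-70082614 (plus), Pou3f1 at chr4:124656807-124660655 (plus) and Sox2 at chr3:34650405-34652461 (plus). Sox4 is at chr13:28948919-28953713 (minus), Id2 at chr12:25093799-25097140 (minus), Zeb2 at chr2:44983632-45117395 (minus), Nr4a2 at chr2:57106830-57124003 (minus) and Rxrg at chr1:167598384-167639623 (plus). Sox2 lies within the longer transcript Sox2ot on its own strand. Zeb2, Sox4 and Pou3f1 overlap Zeb2os, Gm26735 and Gm2164 on the other strand, which took 391, 191 and 0 UMIs in glia against 24252, 5190 and 12864 UMIs of the members. How the counting used strand is not given in the sources used here.

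The levels by class and library separated the members into a pan-glial factor, a myelinating set, an SGC set and a non-myelinating set. For 9 of the 10 members the glial class with the highest level was the same in all 3 libraries, Sox4 being the exception. Class differences were then tested with edgeR's quasi-likelihood test on 9 class sums with library as a block, adjusted by Benjamini and Hochberg over 11882 genes. These tests rest on 3 pools of mice in 3 conditions, so their p-values measure the spread of class differences between those pools. No member was a gate marker, but classes drawn by markers differ widely by construction, and the counts of members are therefore set beside the share of all genes called.

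**Figure D1:**
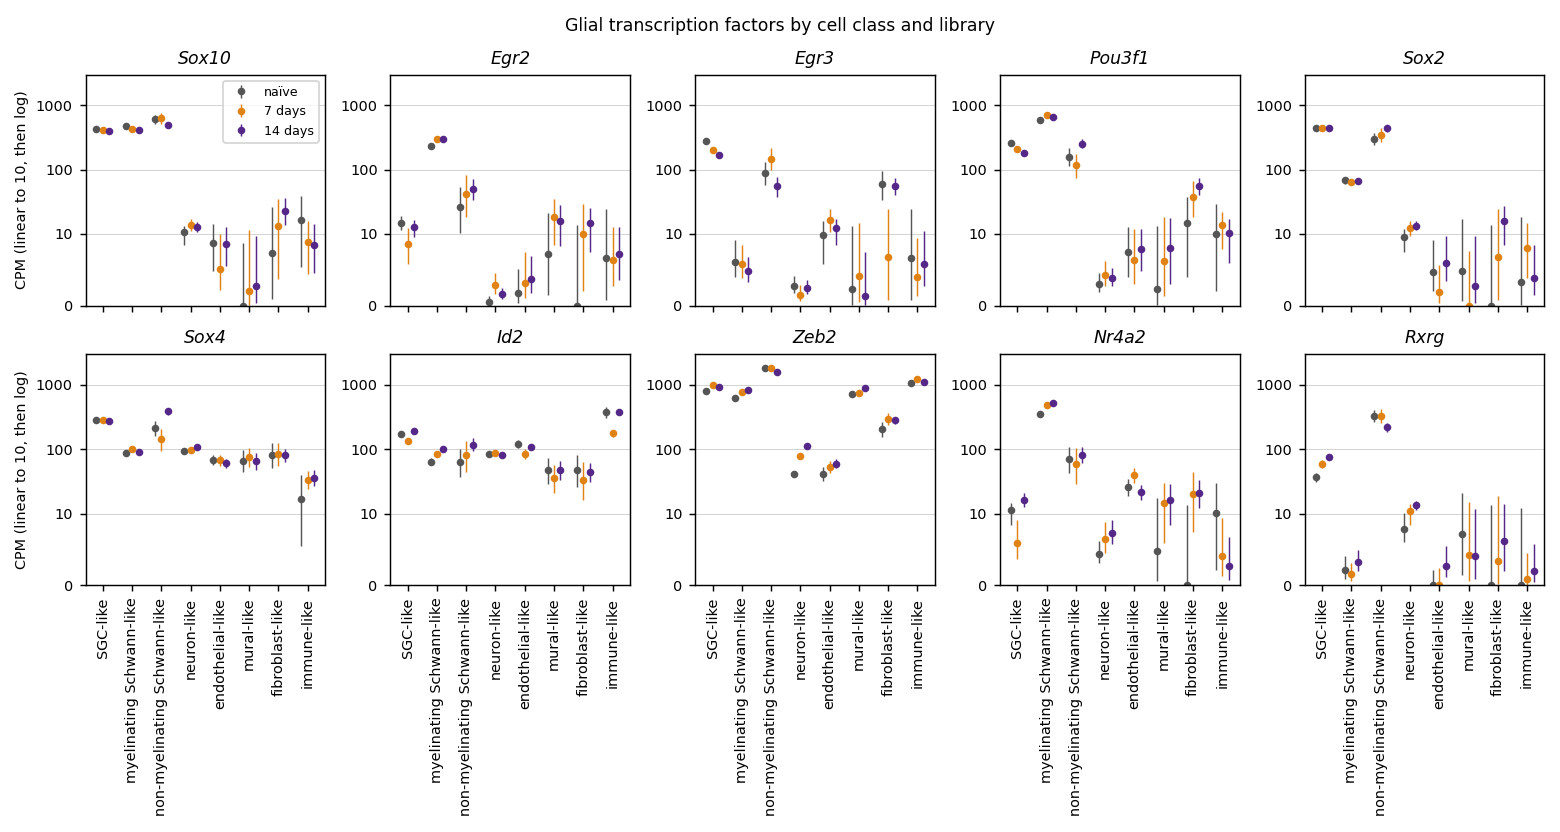
Levels of the 10 members (CPM, axis linear to 10 and then log) in the 8 cell classes, 1 point per library with its exact Poisson 95% interval. Sox10 sits between 400 and 627 CPM in the 3 glial classes in every library. Egr2 and Nr4a2 are highest in myelinating Schwann-like cells and Rxrg in non-myelinating Schwann-like cells.

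Sox10, the neural crest factor common to these glia, was the most even of the 10. Its level was 433, 417 and 400 CPM in SGC-like cells, 472, 423 and 416 CPM in myelinating Schwann-like cells and 609, 627 and 498 CPM in non-myelinating Schwann-like cells. None of the 3 class differences passed the test, with log2 differences of 0.10 ± 0.09 (SE, edgeR adjusted p = 0.332) for myelinating over SGC-like, 0.27 ± 0.10 (edgeR adjusted p = 0.0593) for non-myelinating over SGC-like, and 0.17 ± 0.10 (edgeR adjusted p = 0.222) for non-myelinating over myelinating Schwann-like cells. The range in non-myelinating Schwann-like cells nevertheless lay above that of both other classes, and the difference from SGC-like cells passed without the 14 day library (edgeR adjusted p = 0.0313), with the stricter gate margin (edgeR adjusted p = 0.00992), with Leiden clusters in place of the gate (edgeR adjusted p = 0.0101) and with DESeq2 (adjusted p = 0.0254). With Leiden clusters the difference from myelinating Schwann-like cells passed too (edgeR adjusted p = 0.0156). Outside glia Sox10 stood at 0 to 23.1 CPM in any class and library.

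A Sox10 UMI was found in 88.6%, 91.7% and 91.3% of SGC-like cells and in 69.8%, 76.8% and 75.4% of myelinating Schwann-like cells. Endothelial-like cells, which should lack the gene, had 1 in 3.75%, 3.41% and 4.63% of cells at median depths of 3817, 4934 and 5834 UMIs. After each cell was thinned to 2000 UMIs, the expected shares were 59.1%, 56.5% and 56.0% in SGC-like, 60.3%, 57.0% and 56.6% in myelinating Schwann-like and 65.9%, 75.1% and 62.8% in non-myelinating Schwann-like cells, the last on 49, 46 and 130 cells. At equal depth SGC-like and myelinating Schwann-like cells were thus close in Sox10 detection and non-myelinating Schwann-like cells stood above both.

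Myelinating Schwann-like cells differed from SGC-like cells in 9 of the 10 members, 3 of them higher and 6 lower, where 57.9% of all genes tested were called (28.1% higher and 29.8% lower). The 3 higher members were Egr2, Pou3f1 and Nr4a2. Egr2, the zinc finger factor that drives myelin gene transcription, stood at 15.03, 8.57 and 12.7 CPM in SGC-like cells and at 232, 296 and 301 CPM in myelinating Schwann-like cells, a log2 difference of 4.50 ± 0.13 (edgeR adjusted p = 1.67e-21). Pou3f1, the POU factor of the promyelinating stage, stood at 257, 208 and 181 CPM against 591, 717 and 649 CPM, a log2 difference of 1.63 ± 0.13 (edgeR adjusted p = 1.52e-11). Its ranges in these classes did not overlap, although a stricter filter on cells ended the call (edgeR adjusted p = 0.812).

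Nr4a2, an orphan nuclear receptor known best from dopamine neurons and as an immediate early gene, showed the largest positive difference of the 10. It stood at 11.3, 5.91 and 16.3 CPM in SGC-like cells and at 356, 490 and 514 CPM in myelinating Schwann-like cells, a log2 difference of 5.32 ± 0.15 (edgeR adjusted p = 5.06e-22). A Nr4a2 UMI was present in 55.2%, 72.5% and 74.9% of myelinating Schwann-like cells, against 6.00%, 4.17% and 8.10% of SGC-like cells, which are the deeper class. Endothelial-like cells, with 25.5, 39.2 and 21.7 CPM, were above SGC-like cells.

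The low Egr2 level of SGC-like cells was set against the myelin RNA found in the same cells. Per 1000 CPM of summed myelinating markers, Egr2 stood at 8.09, 4.19 and 6.11 CPM in SGC-like cells and at 3.81, 4.93 and 5.33 CPM in myelinating Schwann-like cells themselves. The ratio was thus of the same order in both classes. It was 7.30, 10.3 and 14.6 in non-myelinating Schwann-like cells, 14.4 to 18.5 in immune-like cells and 1.92 to 3.19 in endothelial-like cells. Egr2 stood at no more than 7.17 CPM in immune-like and 3.75 CPM in endothelial-like cells, so their ratios rest on few UMIs. The part of free RNA in the Egr2 level of SGC-like or non-myelinating Schwann-like cells was not tested.

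Egr3, Sox2, Sox4, Id2, Zeb2 and Rxrg were lower in myelinating Schwann-like than in SGC-like cells. Egr3, a relative of Egr2 induced by activity and growth factors, stood at 281, 205 and 168 CPM in SGC-like cells and at 6.12, 5.77 and 4.82 CPM in myelinating Schwann-like cells, a log2 difference of -5.22 ± 0.13 (edgeR adjusted p = 1.52e-22). The paralogs Egr2 and Egr3 were thus high in opposite classes. Sox2, a factor of progenitors and immature glia, stood at 450, 441 and 441 CPM against 68.1, 64.4 and 67.3 CPM, a log2 difference of -2.71 ± 0.10 (edgeR adjusted p = 6.28e-19). Its levels within each of these classes moved by less than 10 CPM across the 3 libraries.

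Sox4, a group C SOX factor, stood at 286, 280 and 274 CPM in SGC-like cells and at 88.2, 102 and 90.9 CPM in myelinating Schwann-like cells, a log2 difference of -1.55 ± 0.13 (edgeR adjusted p = 2.65e-11). Id2, an inhibitor of bHLH factors, stood at 173, 131 and 189 CPM against 63.7, 84.5 and 101 CPM, a log2 difference of -0.95 ± 0.10 (edgeR adjusted p = 5.41e-09). Zeb2, a zinc finger homeobox repressor, was nearest to even, at 792, 982 and 928 CPM against 621, 768 and 816 CPM. Its log2 difference of -0.26 ± 0.10 (edgeR adjusted p = 0.0222) was lost without the naïve library (adjusted p = 0.0990), without the 7 day library (adjusted p = 0.212) and without the library block (adjusted p = 0.0854), and was -0.06 with the stricter gate margin (adjusted p = 0.620).

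Rxrg, which encodes the retinoid X receptor gamma, a dimer partner of other nuclear receptors, stood at 36.5, 59.4 and 76.3 CPM in SGC-like cells. Myelinating Schwann-like cells gave 8, 7 and 21 Rxrg UMIs in all, or 2.04, 1.497 and 3.16 CPM, and the log2 difference was -4.58 ± 0.25 (edgeR adjusted p = 3.48e-15). Endothelial-like cells were at 0, 0 and 2.62 CPM, so the level of Rxrg in myelinating Schwann-like cells was close to that of a class that is not glial.

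Non-myelinating Schwann-like cells differed from SGC-like cells in 7 members, 4 higher and 3 lower, where 22.3% of all genes tested were called (9.93% higher and 12.4% lower). Rxrg stood at 325, 330 and 218 CPM in non-myelinating Schwann-like cells, the highest of the 8 classes in every library, with a log2 difference of 2.05 ± 0.19 over SGC-like cells (edgeR adjusted p = 1.54e-09). Zeb2 stood at 1831, 1834 and 1604 CPM, also the highest of all classes, with a log2 difference of 0.78 ± 0.10 (edgeR adjusted p = 1.02e-06), which the stricter cell filter ended (log2 0.24, adjusted p = 0.679). Nr4a2 at 70.1, 58.5 and 81.4 CPM and Egr2 at 25.8, 42.5 and 49.8 CPM were higher than in SGC-like cells by log2 differences of 2.44 ± 0.29 (edgeR adjusted p = 1.31e-07) and 1.56 ± 0.32 (edgeR adjusted p = 0.000472). The Egr2 call was lost without the 14 day library (adjusted p = 0.0557), under the stricter cell filter (adjusted p = 0.196) and with Leiden clusters in place of the gate, where the log2 difference was 0.26 (adjusted p = 0.745).

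The 3 members lower in non-myelinating Schwann-like than in SGC-like cells were Egr3, Id2 and Sox2. Egr3 stood at 88.6, 149 and 54.8 CPM (log2 difference -1.50 ± 0.17, edgeR adjusted p = 6.35e-08), Id2 at 62.8, 79.7 and 118 CPM (-1.04 ± 0.19, edgeR adjusted p = 9.63e-05) and Sox2 at 303, 346 and 438 CPM (-0.43 ± 0.12, edgeR adjusted p = 0.0079). The Sox2 call was lost without the naïve library (adjusted p = 0.171) and without the 7 day library (adjusted p = 0.109), and also under the stricter cell filter (adjusted p = 0.420), and without the 14 day library its log2 difference was -0.69. Pou3f1 at 159, 117 and 254 CPM and Sox4 at 210, 144 and 387 CPM overlapped their SGC-like ranges, with log2 differences of -0.29 ± 0.19 (edgeR adjusted p = 0.315) and -0.18 ± 0.17 (edgeR adjusted p = 0.512). Both were called lower without the 14 day library (log2 -0.94 and -0.84), with Leiden clusters (-0.64 and -0.88) and under the stricter cell filter (-1.96 and -1.08).

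Between the Schwann-like classes 8 members were called, 5 higher and 3 lower in non-myelinating cells, where 32.5% of all genes tested were called (16.1% higher and 16.4% lower). The higher ones, with log2 differences, were Rxrg (6.63 ± 0.29), Egr3 (3.72 ± 0.28), Sox2 (2.28 ± 0.13), Sox4 (1.37 ± 0.18) and Zeb2 (1.04 ± 0.10). The lower ones were Egr2 (-2.94 ± 0.20), Nr4a2 (-2.88 ± 0.18) and Pou3f1 (-1.92 ± 0.18). The largest adjusted p among these 8 was 5.2e-07 (edgeR), for Sox4, whose difference was 0.70 without the 14 day library and 0.75 with Leiden clusters. Id2 gave a log2 difference of -0.08 ± 0.20 (edgeR adjusted p = 0.799).

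**Figure D2:**
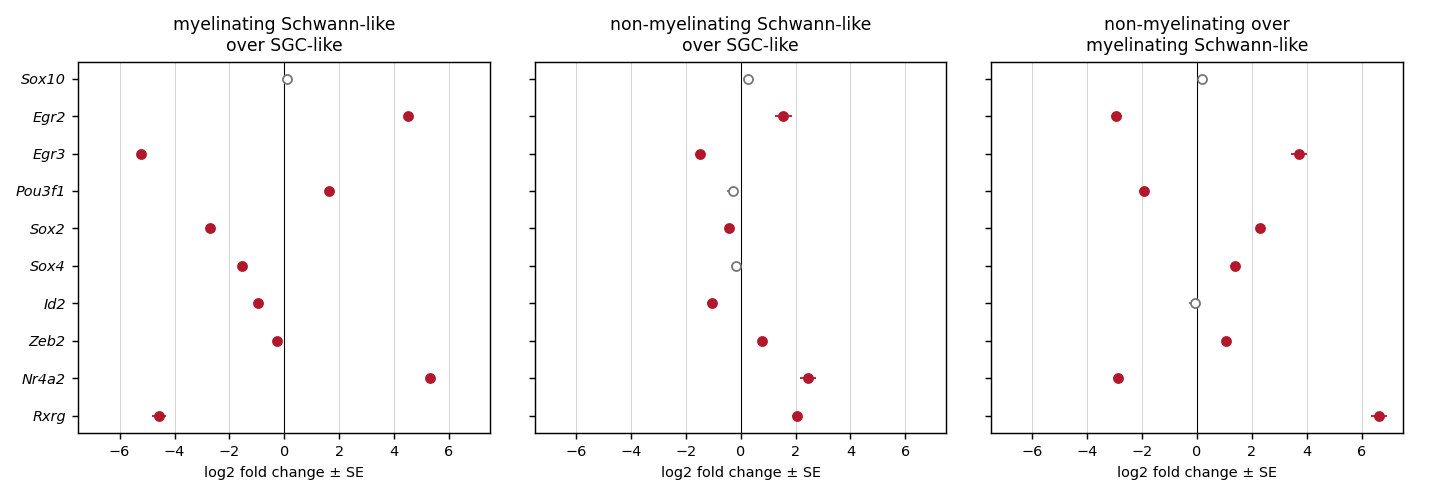
Log2 fold change of the 10 members between glial classes, fitted by edgeR over 9 class sums (3 libraries for each of 3 classes) with its SE; filled points passed an adjusted p of 0.05 and open points did not. Egr2 and Nr4a2 lie far to the right and Egr3 and Rxrg far to the left for myelinating over SGC-like cells, and Sox10 is open in all 3 panels.

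Outside glia, Id2 and Zeb2 stood at levels like those of the glial classes. Id2 stood at 374, 175 and 380 CPM in immune-like cells, above its SGC-like level in every library. Zeb2 stood at 1072, 1214 and 1104 CPM in immune-like cells, between its levels in non-myelinating Schwann-like and SGC-like cells, and at 713, 736 and 887 CPM in mural-like cells. Sox4 was present at 94.8, 97.3 and 109 CPM in neuron-like cells, around its level in myelinating Schwann-like cells.

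The genes whose levels over 24 class sums were most like each member's give its surroundings, as a description with Pearson's r of log2(CPM + 1) values that share libraries and gating. For Sox10 they were Gm12688 (0.975), Gal3st1 and Cmtm5, for Pou3f1 Plekhb1 (0.978), Plekha4 and Sema3b, and for Sox2 Gpr37l1 (0.972), Slitrk1 and Ppp1r1b. For Egr2 they were Cdkn1b (0.902), Ado and Secisbp2l, and for Nr4a2 P2ry2 (0.893), Ssh1 and Egr2 itself (0.867). Egr3 was closest to Itgb3 (0.923), Fam198a and Fbln2, Rxrg to Slc35f1 (0.946), Adgrb1 and Frmd5, and Sox4 to Pcdh7 (0.914), Stard13 and Trio. Zeb2 was closest to Rasa3 (0.921), Pxdc1 and Litaf, and Id2 to Cks2 (0.842), Prex1 and Lair1.

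Partner and target genes of these factors were split between the classes. Of 16 listed partners, 14 were tested, and 6 were higher and 6 lower in myelinating Schwann-like than in SGC-like cells, where 28.1% of all genes were higher and 29.8% lower, with a median log2 difference of 0.04 against 0.01 over all genes. Higher were the Egr2 corepressors Nab1 (0.57 ± 0.08) and Nab2 (0.68 ± 0.09) and the Sox10 relative Sox8 (1.45 ± 0.13), and lower were the Pou3f1 relative Pou3f2 (-0.88 ± 0.09) and the Zeb2 relative Zeb1 (-1.23 ± 0.09), all passing the edgeR test.

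Of 14 listed targets of Egr2 and Sox10 that were not used in the gate, 13 were tested and 6 were higher and 6 lower in myelinating Schwann-like than in SGC-like cells, beside the same 28.1% and 29.8% of all genes. The 6 higher were structural or signalling genes of the myelin sheath, led by Drp2 (log2 difference 6.89 ± 0.15), Pmp22 (5.17 ± 0.12), Gjb1 (4.35 ± 0.14) and Dusp15 (4.14 ± 0.13), with Cnp and Gjc3. The 6 lower included Erbb3, a neuregulin receptor (-0.54 ± 0.09), and the lipid synthesis genes Fdps (-1.46 ± 0.09), Sqle (-1.77 ± 0.09) and Scd2 (-0.41 ± 0.09). In non-myelinating Schwann-like cells 1 of these targets was higher and 10 lower than in myelinating ones, where 16.1% of all genes were higher and 16.4% lower.

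The list of immature and repair genes had 8 tested members. Of all genes, 57.9% were called between myelinating Schwann-like and SGC-like cells and 22.3% between non-myelinating Schwann-like and SGC-like cells. None was higher and 6 were lower in myelinating Schwann-like than in SGC-like cells, among them Id3 (-3.33 ± 0.10), Notch1 (-2.50 ± 0.10) and Runx2 (-2.48 ± 0.41). In non-myelinating Schwann-like over SGC-like cells 3 were higher, Gap43 (3.01 ± 0.22), Runx2 (2.63 ± 0.36) and Jun (0.59 ± 0.15), and 4 were lower. The Runx2 difference was not kept without a cluster led by Runx2, described below. Runx2 then stood at 8.57, 0 and 22.7 CPM against 23.1, 28.3 and 21.9 CPM in SGC-like cells. Jun then stood at 330, 195 and 235 CPM against 214, 252 and 181 CPM, and Gap43 stayed higher in each library. Of 11 tested immediate early genes, 3 were higher and 6 lower in myelinating Schwann-like than in SGC-like cells. Atf3, a stress-induced factor, was higher in non-myelinating Schwann-like than in SGC-like cells by 5.04 ± 0.33. Without the Runx2-led cluster Atf3 stood at 29.99, 24.4 and 14.2 CPM against 1.83, 1.82 and 3.96 CPM in SGC-like cells.

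The injured libraries were then set against the naïve one within each class. Each condition has a single library, so no test was made, injury cannot be told apart from other differences between the pools, and both comparisons share the naïve library. Ratios of CPM have exact binomial 95% intervals, here as everywhere for counting error alone. Single cells held up to 87 UMIs of 1 member, so the true spread is wider. A gene was counted as past 2-fold where its CPM ratio was at least 2, or its inverse at least 2, with 20 UMIs or more over both libraries.

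**Figure D3:**
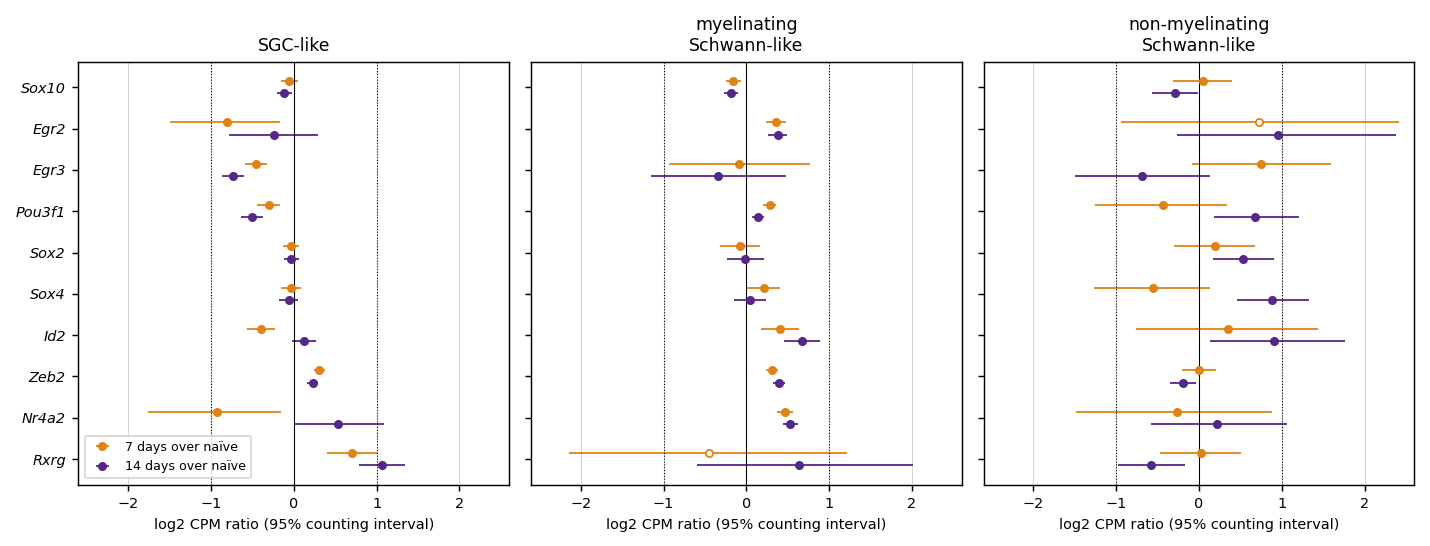
Log2 CPM ratio of each injured library over the naïve library for the 10 members in the 3 glial classes, with exact binomial 95% intervals that cover counting error only; dotted lines mark 2-fold. Rxrg in SGC-like cells at 14 days, at 1.06, is the 1 value past 2-fold, and Egr3 and Pou3f1 lie below 0 in SGC-like cells at both times.

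In SGC-like cells 0 of the 10 members were past 2-fold at 7 days, where 1.25% of genes were higher and 0.957% lower by that measure. At 14 days 1 member was higher, where 2.3% of genes were higher and 0.949% lower. That member was Rxrg, whose level went from 36.5 CPM to 59.4 and 76.3 CPM, on 165, 201 and 336 UMIs. The log2 ratios were 0.70 (0.40 to 1.01) at 7 days and 1.06 (0.79 to 1.34) at 14 days, just past the limit of 1. The ratio at 14 days was under that limit without a cell filter (0.83), with the stricter gate margin (0.84) and with Leiden clusters in place of the gate (0.98). Cells with a Rxrg UMI made up 19.3%, 33.1% and 39.3%, and 7.94%, 13.8% and 15.3% after thinning to 2000 UMIs, so the order of the libraries was the same at equal depth. The 5 summed markers of non-myelinating Schwann cells, the class highest in Rxrg, stood at 1439, 1514 and 1538 CPM in the same SGC-like cells, and their part in the Rxrg ratio was not tested.

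The higher Rxrg level was seen within more than 1 cluster, counted over all cells of the cluster. In the cluster led by Ednrb and Itgb3, which held 47.9%, 51.0% and 58.9% of SGC-like cells, the log2 ratios of Rxrg were 0.65 and 0.94. In the cluster led by Hes5 and Aqp4, which held 29.5%, 34.9% and 31.8%, they were 0.71 and 1.27. Under a stricter filter (1000 genes or more, mitochondrial UMIs no more than 10%) the ratios turned to -1.52 and -1.16, but that filter left 102, 14 and 7 SGC-like cells with 47, 3 and 1 Rxrg UMIs. Median mitochondrial UMIs of SGC-like cells were 13.5%, 15.1% and 15.6%, and their part in the Rxrg ratio was not tested beyond this filter.

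Egr3 in SGC-like cells was lower in both injured libraries, by log2 ratios of -0.45 (-0.59 to -0.32) and -0.74 (-0.87 to -0.60), from 281 to 205 and 168 CPM. The share of cells with an Egr3 UMI was 58.3%, 46.4% and 43.3%, and 34.4%, 23.9% and 21.9% at 2000 UMIs, although the injured libraries were the deeper ones before thinning. At 14 days the ratio was below 0 in each of the clusters of SGC-like cells, at -0.99 in the cluster led by Ednrb and Itgb3 and at -1.15 in the cluster led by Hes5 and Aqp4. Under the stricter cell filter it was -1.02 at 7 days and 0.02 at 14 days.

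Of the 9 other immediate early genes measured at both times in SGC-like cells, Ier2 (-0.07 and -0.59) and Dusp1 (-0.45 and -0.19) were also below 0 at both. Egr1, which like Egr3 is induced by serum response factor, had log2 ratios of 0.09 and 0.01, Fos 0.48 and -0.13, Nr4a1 0.06 and -0.08 and Junb 0.50 and 0.55. The median of the measured members of that list was 0.09 and then -0.10, while that of all genes was -0.0016 and 0.02.

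Pou3f1 in SGC-like cells was also lower after injury, with log2 ratios of -0.30 (-0.44 to -0.17) and -0.50 (-0.63 to -0.37). Its level was uneven among them: over all libraries Pou3f1 stood at 292 CPM in the cluster led by Ednrb and Itgb3 and at 9.53 CPM in the cluster led by Hes5 and Aqp4. Within the former the log2 ratios were -0.38 and -0.84, and in the cluster led by interferon-induced genes such as Cxcl10 and Ifit3b, which made up 14.5%, 5.99% and 2.43% of SGC-like cells, they were 0.13 and 0.60. Under the stricter cell filter the 14 day ratio was 1.08, on the same 102, 14 and 7 cells. Without the Runx2-led cluster described below, Pou3f1 of SGC-like cells stood at 209, 166 and 150 CPM.

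Egr3 and Pou3f1 were found together in SGC-like cells more often than their shares would give if unrelated. At 2000 UMIs both had a UMI in 13.2%, 8.95% and 9.98% of cells, against products of their shares of 7.95%, 3.59% and 4.24%. Pou3f1 and Sox4 shared 11.7%, 8.95% and 11.6% of cells, against products of 8.37%, 6.29% and 6.96%. By contrast Egr2 and Nr4a2 in myelinating Schwann-like cells, at 16.7%, 25.8% and 23.4% together, were near their products of 17.6%, 24.2% and 24.4%. SGC-like cells mix clusters that differ in these genes. In the Ednrb-led cluster Egr3, Pou3f1 and Sox4 stood at 283, 292 and 341 CPM, and in the Hes5-led cluster at 93.2, 9.53 and 175 CPM. They stood at 303, 1292 and 801 CPM in the Runx2-led cluster described below, which held 7.27%, 6.25% and 5.87% of SGC-like cells. Joint detection was not computed within a cluster, and the part of this mixing was not tested.

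Zeb2 in SGC-like cells was higher by 0.31 (0.24 to 0.38) and 0.23 (0.16 to 0.29) on the log2 scale. Id2 was lower at 7 days (-0.40, -0.57 to -0.23) but not at 14 days (0.13, -0.02 to 0.27). Sox2 (-0.03 at both times) and Sox4 (-0.03 and -0.06) had intervals that held 0 and reached no further than -0.18. Sox10 was at -0.05 and -0.11. Egr2 and Nr4a2 rested on 20 to 72 SGC-like UMIs per library, and their 7 day ratios of -0.81 (-1.49 to -0.16) and -0.93 (-1.76 to -0.16) were not met at 14 days, at -0.24 and 0.54.

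In myelinating Schwann-like cells 0 of the 10 members were past 2-fold at either time, where 1.14% of genes were higher and 0.967% lower at 7 days and 2.04% higher and 1.05% lower at 14 days. Within that limit the 3 members highest in this class were higher in both injured libraries. Nr4a2 went from 356 to 490 and 514 CPM, log2 ratios of 0.46 (0.36 to 0.56) and 0.53 (0.44 to 0.62). Egr2 went from 232 to 296 and 301 CPM, at 0.35 (0.23 to 0.47) and 0.38 (0.26 to 0.49), and Pou3f1 from 591 to 717 and 649 CPM, at 0.28 (0.20 to 0.36) and 0.14 (0.06 to 0.21).

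At equal depth the shares kept that order, on 903 of 1346, 1010 of 1135 and 1446 of 1631 cells. Cells shallower than 2000 UMIs were left out, and more of the naïve cells were lost in this way. Thinned to 2000 UMIs, Nr4a2 was found in 48.6%, 56.5% and 58.4% of myelinating Schwann-like cells, Egr2 in 34.5%, 40.0% and 41.1% and Pou3f1 in 56.4%, 65.7% and 62.5%. Nr4a2 ratios were above 0 in all 6 clusters of these cells at both times, from 0.40 to 0.92 in 5 of them and at 0.16 and 0.04 in the cluster led by interferon-induced genes, which held 7.13%, 2.38% and 2.27% of the class. Egr2 and Pou3f1 ratios were above 0 in all 6 at 7 days. At 14 days Egr2 ranged from -0.03 to 0.82. Pou3f1 then ranged from -0.28, in the interferon-led cluster, to 0.37 in the cluster led by Ctnna3 and Bcas1. Its 14 day interval lay clear of 0 in the latter cluster alone.

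Id2 and Zeb2 were higher as well, at 0.41 (0.17 to 0.64) and 0.67 (0.46 to 0.89) for Id2 and 0.31 (0.23 to 0.38) and 0.39 (0.33 to 0.46) for Zeb2. Sox10 was slightly lower, at -0.16 (-0.25 to -0.07) and -0.18 (-0.27 to -0.10). Sox2, at -0.08 (-0.32 to 0.16) and -0.02 (-0.24 to 0.21), stood at a similar low level in the 3 libraries. These intervals cover counting error alone and cannot exclude a change after injury. Within clusters of the class its 14 day ratio ranged from -0.47, in the cluster led by Mpp6, to 0.66 in the cluster led by Lox. Egr3 and Rxrg were too scarce for a direction, with 7 to 32 UMIs per library.

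Some immediate early genes were also higher in the injured libraries in myelinating Schwann-like cells. Of 11 measured, 2 were past 2-fold at 7 days (Nr4a3 at 1.501 and Atf3 at 1.19) and 4 at 14 days (Junb at 1.09, Nr4a3 at 1.15, Atf3 at 1.24 and Btg2 at 1.11), none of them lower. Of all genes 1.14% were higher at 7 days and 2.04% at 14 days. Egr1 was at 0.83 and 0.95 and Fos at 0.71 and 0.65, and the median of the list was 0.28 and 0.67 against 0.01 over all genes at both times. Their part in the higher levels of Egr2 and Nr4a2 was not tested. The targets of Egr2 and Sox10 gave 0 past 2-fold of 13 measured at either time, with medians of -0.03 and -0.04.

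Repair genes were scarce in myelinating Schwann-like cells, and 3 of 8 measured were past 2-fold at 14 days, where 2.04% of genes were higher and 1.05% lower. Gap43, a growth-associated protein, was at 1.18 (0.35 to 2.08) and 1.82 (1.08 to 2.66), on 17, 46 and 102 UMIs. Runx2 was at 1.27 (0.30 to 2.37) at 14 days, and Sox11, on 2 and 31 UMIs, at 3.19 (1.22 to 6.30). Jun, the main driver of the repair Schwann cell, was at 0.33 and 0.37. Gap43 was also higher in SGC-like cells, at 1.35 (0.55 to 2.18) and 2.14 (1.44 to 2.90), on 21, 40 and 90 UMIs. The 6 summed neuron markers stood at 99.4, 146 and 146 CPM in myelinating Schwann-like cells and at 104, 128 and 148 CPM in SGC-like cells. The part of neuronal RNA in these ratios, and in that of Atf3, was not tested.

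In non-myelinating Schwann-like cells 0 members were past 2-fold at 7 days, where 2.34% of genes were higher and 4.5% lower, and 0 at 14 days, where 5.34% were higher and 4.47% lower. The width of the intervals depends on depth, and the class held 270899, 188122 and 602063 UMIs. How many of all genes had an interval clear of 0 was not counted, so members are not counted by it either. At 7 days no interval of the 10 members left out 0. At 14 days some did. Sox4 (0.88, 0.46 to 1.32), Id2 (0.91, 0.13 to 1.77), Pou3f1 (0.68, 0.18 to 1.2) and Sox2 (0.53, 0.17 to 0.91) were higher, and Rxrg (-0.58, -0.98 to -0.17), Sox10 (-0.29, -0.57 to -0.01) and Zeb2 (-0.19, -0.35 to -0.03) were lower. The 3 lower ones are the members whose level was highest in this class among the glia.

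The make-up of the class moved with these values. A cluster led by Runx2, Col27a1 and Postn, whose markers gave it no class name, held 9.79%, 8.97% and 26.6% of the non-myelinating Schwann-like cells. In all its 358 cells, gated or not, Pou3f1 stood at 1292 CPM, Sox4 at 801 CPM, Sox2 at 406 CPM and Rxrg at 64.5 CPM, against 133, 166, 290 and 339 CPM in the cluster led by Scn7a, which held 72.0%, 80.8% and 58.4% of the class. The summed markers of the class stood at 7272, 7559 and 5181 CPM and those of fibroblasts at 495, 271 and 1365 CPM.

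**Figure D4:**
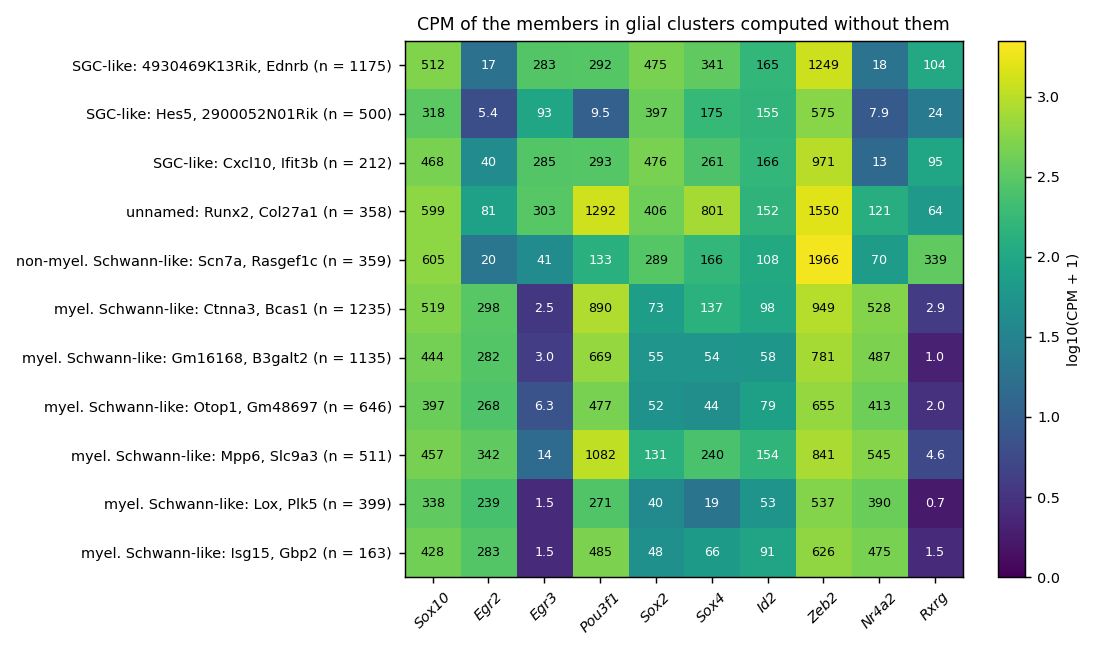
Levels of the 10 members (CPM over all libraries) in the 11 clusters that hold the glial cells, built without the members and named here by their leading genes. Pou3f1 and Sox4 peak in the cluster led by Runx2, at 1292 and 801 CPM, and Pou3f1 is near 10 CPM in the cluster led by Hes5.

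Without the Runx2-led cluster the picture in non-myelinating Schwann-like cells changed. Sox4 then stood at 137, 67.1 and 159 CPM, Sox2 at 287, 317 and 340 CPM and Rxrg at 356, 378 and 315 CPM. Sox10 stood at 583, 696 and 561 CPM and Zeb2 at 1842, 1916 and 1806 CPM. The 14 day levels of all of these lay near the naïve ones. Pou3f1, at 107, 61.0 and 218 CPM, and Id2, at 47.1, 73.2 and 133 CPM, remained higher at 14 days. Within the Scn7a-led cluster alone the 14 day log2 ratios were 1.28 (0.51 to 2.12) for Pou3f1 and 1.83 (0.88 to 2.91) for Id2, on 18 and 11 naïve UMIs, against -0.17 for Sox4 and 0.15 for Rxrg. For Sox10 and Zeb2 they were 0.18 (-0.13 to 0.51) and 0.0067 (-0.16 to 0.18), so neither was lower there.

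The values of the repair list also turned on this cluster. In non-myelinating Schwann-like cells 5 of 8 measured repair genes were past 2-fold at 14 days, where 5.34% of genes were higher and 4.47% lower. Their median log2 ratio was 1.81 against -0.03 over all genes. The 5 genes were Runx2 (3.48, 2.53 to 4.63), Gap43 (2.38, 1.49 to 3.42), the EGF family ligand Btc (2.10, 1.11 to 3.28), Id4 (1.52, 0.43 to 2.81) and the neurotrophic factor Gdnf, with 1 and 36 UMIs. The 6 summed neuron markers stood at 92.3, 303 and 357 CPM in this class, and their part in these ratios was not tested. Without the Runx2-led cluster Gap43 stood at 38.6, 42.7 and 48.2 CPM and Atf3 at 29.99, 24.4 and 14.2 CPM, and no Gdnf UMI was left in any library.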

How the data were processed

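The authors deposited a count matrix of UMIs per gene and cell for each of the 3 libraries (3748, 3281 and 4908 barcodes), with whole counts and no normalization. The submitters' processing notes name Cell Ranger 3.0.2 and mm10. Whether reads were downsampled to 1 depth is not given in the sources used here.

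The class of a cell was that of its highest score over markers of 8 classes, scaled to the top 5% of cells, at 1.5 times the next score or more and with at least 2 markers holding a UMI. Scrublet (scanpy 1.11.5, expected rate 5%) called 90 doublets, which were removed. Clusters came from leidenalg 0.10.2 at resolution 1, on 2000 variable genes without the members, 30 principal components and 15 neighbours. Class sums with TMM factors were tested with edgeR 4.0.16 in R 4.3.3 (filterByExpr, adjusted threshold 0.05). Levels have exact Poisson intervals, and shares were also computed after thinning cells to 2000 UMIs, with shallower cells left out. The scripts were tested on simulated data.

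The 10 members, the marker lists and the lists of partner, repair, target and immediate early genes were chosen with earlier results of these data known. All members were named, other genes from these lists alone, with the 3 genes most like each member among those at 10 CPM or more in at least 3 class sums. Alternatives changed the filter on cells, doublet removal, the gate margin, the class definition, scaling, the test (DESeq2 1.42.0), the library block, the filter on low counts and the libraries used. Intervals and limits cover counting error only. Some genes of these lists are not reported here by name.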

Additional observations from a re-analysis of the deposited data

Results flagged for a closer look

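For 4 members both injured libraries stood on one side of the naïve level in 1 glial class and on the other side in another. Each is given as the difference between the classes in the log2 CPM ratio of the 14 day library over the naïve one. None of these differences was tested, since each condition has 1 library.

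For Pou3f1 the ratio of myelinating Schwann-like cells exceeded that of SGC-like cells by 0.64, and here the intervals of both classes lay clear of 0 at both times. Within the clusters of myelinating Schwann-like cells, however, its 14 day ratio ranged from -0.28 to 0.37. For Egr2 the ratio exceeded that of SGC-like cells by 0.62 in myelinating Schwann-like cells and by 1.19 in non-myelinating ones, on 7 and 30 UMIs in the latter. Without the Runx2-led cluster Egr2 of non-myelinating Schwann-like cells stood at 25.7, 36.6 and 19.8 CPM, on 6, 6 and 7 UMIs. Its 14 day level then lay below the naïve one. For Sox2 the ratio of non-myelinating Schwann-like cells exceeded that of SGC-like cells by 0.57 and that of myelinating Schwann-like cells by 0.55. Without the Runx2-led cluster Sox2 of non-myelinating Schwann-like cells stood at 287, 317 and 340 CPM. Over all cells of the Scn7a-led cluster its 14 day log2 ratio was -0.00039. For Sox4 the ratio of myelinating Schwann-like cells exceeded that of SGC-like cells by 0.10, and the intervals at 14 days held 0 in both classes.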

How the results depend on the processing

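Between classes, 30 member differences were recomputed under 13 alternatives. Of 390 values 361 kept their direction and side of the threshold, 12 lost and 11 gained a call, and 6 that were not called changed sign. These were Id2 between the Schwann-like classes (-0.34 to 0.0052 with 1 library left out, above 0 without the 7 day one, 0.41 under the stricter cell filter, 0.15 with the stricter margin, 0.18 with Leiden clusters), Sox4 of non-myelinating over SGC-like cells (-0.84 to 0.012 with 1 library left out, above 0 without the naïve one) and Sox10 of myelinating over SGC-like cells under the stricter cell filter (-0.014). The total of called members stayed within 1.5 times. By direction, non-myelinating over SGC-like cells had 4 higher and 3 lower, beside 9.93% and 12.4% of all genes tested. The stricter cell filter gave 2 higher and 4 lower. Without the 14 day library or with Leiden clusters there were 4 and 5, and without the naïve or the 7 day library 4 and 2. Shares of all genes by direction were not counted under these alternatives, so these counts cannot be read as results about the members. Calls gained were of Sox10, Pou3f1 and Sox4 (non-myelinating over SGC-like) and of Sox10 between the Schwann-like classes. Calls lost were of Zeb2 and Pou3f1 (myelinating over SGC-like) and of Sox2, Egr2 and Zeb2 (non-myelinating over SGC-like). Classes were compared with library as a block, and without the block the Zeb2 call of myelinating over SGC-like cells was lost and no other changed. For the injury ratios, leaving out a library leaves no ratio for it. No paired analysis was possible because a condition is a single library, as far as those ratios go. Of 599 injury ratios 540 moved by less than their interval, 54 moved further and 5 past 2-fold reversed.

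Members past 2-fold numbered 0 in SGC-like cells at 7 days, 1 at 14 days, and 0 in the other classes. The share of all genes past 2-fold was counted for this setting alone. Counts under the alternatives below therefore cannot be read as results about the members. Under the stricter cell filter they numbered 3 in SGC-like cells at 7 days and 4 at 14 days, 1 in myelinating Schwann-like cells at 7 days, and 1 and 4 in non-myelinating ones. Without a cell filter or with Leiden clusters there were 0 in SGC-like cells at 14 days. The stricter gate margin gave 2 in SGC-like cells at 7 days, 1 in myelinating Schwann-like cells at 14 days, and 1 and 3 in non-myelinating ones. The looser margin gave 1 in each Schwann-like class at 14 days. Means over cells of counts per 10000 gave 2 in SGC-like cells at 7 days and 1 in non-myelinating ones at 14 days, and TMM factors gave 1 in the latter. Leiden clusters gave 2 and 2 in non-myelinating cells. Leaving out the Runx2-led cluster, an alternative chosen after seeing the data, as was leaving out interferon-led clusters, also gave 2 and 2.

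Reversed under the stricter cell filter were Rxrg of SGC-like cells (-1.52 at 7 days, -1.16 at 14 days), Pou3f1 (1.08) and Sox4 (1.43) at 14 days, and under the stricter margin Egr3 of non-myelinating cells at 7 days (-1.30). The cause was not tested, but that filter left 102, 14 and 7 SGC-like cells. Over the other alternatives Rxrg of SGC-like cells at 14 days ranged from 0.834 to 1.196.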

Other observations

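Neuron-like cells held Zeb2 at 41.1, 79.4 and 111 CPM in the naïve, 7 day and 14 day libraries. The median depth of these cells was 63909, 2655 and 78022 UMIs in the same order, and the libraries held 120, 159 and 122 of them. The part of that difference in depth, and of the neuron types captured, was not tested.

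At 2000 UMIs a glial cell showed between 3.03 and 3.53 of the 10 members on average, depending on class and library, and 0 to 15 cells of a class and library showed none.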
